A study of Mus musculus with 10 samples.

Results

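The 9 genes Hif1a, Epas1, Hif3a, Clock, Npas2, Arntl, Arntl2, Per1 and Per2 encode relatives of the aryl hydrocarbon receptor (AHR) that carry the same PAS domain. Every ChIP-seq peak that overlapped one of these genes, or the 10 kb on either side of it, was collected from the 2 peak lists of the series, without regard to its score. This gave 43 of the 123652 wild type (WT) peaks and 1 of the 1931 AHR KO peaks. The peaks came from mouse colon organoids, epithelial cultures grown from colonic stem cells. All organoids were kept in WENR medium and were exposed to 5 nM of the AHR ligand FICZ for 1 h. For WT there were 4 AHR immunoprecipitations and 4 inputs, and for the AHR knockout (KO) 1 immunoprecipitation and 1 input. The WT samples were represented by 1 list and the KO by another, so no value had a replicate and no difference between genotypes was tested. No untreated organoids were part of the series. By the study's methods, organoids were grown from the colonic crypts of Vil-Cre Ahr fl/fl mice, in which Cre under the villin promoter deletes Ahr in the intestinal epithelium, and of WT mice, with several biological replicates for ChIP. The labels list a single KO immunoprecipitation and do not say whether cultures were pooled for it.

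bHLH-PAS proteins bind DNA as pairs. AHR, once bound by ligand, pairs with ARNT, and so do the oxygen-labile HIF alpha subunits encoded by Hif1a, Epas1 and Hif3a, which are degraded when oxygen is plentiful and accumulate in hypoxia, a usual state of the epithelium facing the gut lumen. In the circadian clock, CLOCK or NPAS2 pairs with ARNTL (BMAL1) or ARNTL2, and these pairs switch on Per1 and Per2, whose products feed back to block them. The DNA words of these pairs are similar. TNGCGTG, where N is any base, is the AHR-ARNT word and holds the core GCGTG, HIF pairs read ACGTG or GCGTG, and clock pairs read the E-box CACGTG and its variant CACGTT. A match to the E-box or its variant is also a match to ACGTG. Words were counted on both strands in the 200 bp around the midpoint of each peak.

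Sequences of 4 WT peaks show what the list held at these genes. The Clock peak was 1 of the 2 with TNGCGTG, the Epas1 peak had the highest score of the 43, the Npas2 peak was the only one that overlapped an AHR KO peak, and the Arntl peak was the only one with an E-box variant. Each is the 200 bp around the midpoint, on the plus strand of GRCm38 (mm10), with matches on either strand to the words above in capitals.
Clock, intron, chr5:76218518-76218717: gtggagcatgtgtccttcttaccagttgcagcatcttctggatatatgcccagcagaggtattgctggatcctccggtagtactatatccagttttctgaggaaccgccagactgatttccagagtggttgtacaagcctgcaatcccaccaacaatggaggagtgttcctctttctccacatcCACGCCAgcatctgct
Epas1, intron, chr17:86778926-86779125: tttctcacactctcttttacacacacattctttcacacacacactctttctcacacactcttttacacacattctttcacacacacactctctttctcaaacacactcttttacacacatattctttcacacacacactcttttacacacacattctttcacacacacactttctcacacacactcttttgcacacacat
Npas2, intron, chr1:39222820-39223019: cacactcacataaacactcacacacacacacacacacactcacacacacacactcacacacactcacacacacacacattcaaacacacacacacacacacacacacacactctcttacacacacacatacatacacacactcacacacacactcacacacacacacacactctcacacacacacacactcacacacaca
Arntl, intron, chr7:113230497-113230696: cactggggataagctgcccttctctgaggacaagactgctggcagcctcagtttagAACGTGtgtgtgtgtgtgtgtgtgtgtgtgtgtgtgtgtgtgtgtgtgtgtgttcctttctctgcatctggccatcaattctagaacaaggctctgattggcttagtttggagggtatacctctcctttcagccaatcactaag

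Runs of alternating CA or TG bases are visible in 3 of these 4 sequences. CA repeat is used here for a window in which CACACA or TGTGTG occurred 3 or more times without overlap. Of the 43 peaks 33 were CA repeats (76.7%, 95% Wilson interval 62.3 to 86.8%), beside 57.2% of all WT peaks, a background below the interval. Peaks of one gene are neighbours and not independent draws, so this is a description of the list. Lower-case bases of the reference mark repeats (soft-masking). In the sequences printed here lower case does not show masking, since only matched words are in capitals. Windows with 50% or more of their bases soft-masked numbered 36 (83.7%, 70.0 to 91.9%), beside 86.0% of all WT peaks. No peak at these genes had a window under 25% soft-masked (0 of 43, which allows a share of up to 6.98%), while 0.454% of all WT peaks did. All 43 were either a CA repeat or at least 50% soft-masked. Wilson intervals and limits cover counting error only.

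The AHR-ARNT word TNGCGTG was present in 2 of the 43 windows (4.65%, 1.28 to 15.5%), against 2.84% of all WT peaks. Its core GCGTG was in 11 (25.6%, 14.9 to 40.2%), against 17.7% of all. ACGTG, the other HIF word, was in 3 (6.98%, 2.40 to 18.6%), beside a background of 6.37%. The E-box CACGTG was in none (0 of 43, which allows up to 6.98%), beside 2.25% of all WT peaks, and CACGTT was in 1, beside 1.08%. Words of AP-1 and TEAD, factors that act in the regenerating epithelium, were as infrequent, with TGACTCA in 1 window against 1.28% of all and GGAATG in 2 against 7.24%. For every word the background share lay inside the interval. Of the 16 copies of GCGTG in these windows, 9 were preceded by GT, as in an interrupted run of TG bases (GTGCGTG), a context that cannot at once be TNGCGTG. Counted by window, 5 of the 11 with GCGTG had such a copy (45.5%, 21.3 to 72.0%), near the 41.6% of all WT peaks with GCGTG.

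By position, 30 of the 43 midpoints lay in an intron of the gene, 2 at a promoter, 2 in other exons, 5 upstream and 4 downstream. Gene bodies make up most of the 803 kb of windows, and no such split was computed over all WT peaks. More than 10 kb from every annotated start of the gene were 20 of them, and 9 were within 2 kb of one.

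The score of a peak is the fold enrichment given by the authors, a ratio of immunoprecipitate to expected background. The 43 scores ran from 3.37 to 8.97 with a median of 5.54 (quartiles 4.87 and 5.98, interval of the median 5.15 to 5.86), and the median of all WT peaks was 5.32 (quartiles 4.53 and 5.98). In all, 25 of the 43 were at or above the list's median and 3 were in its top 10%, which begins at 7.14. Scores of 17 of the 43, like 51.6% of the whole list, were whole multiples of 0.332 (within 2e-06 per multiple and a rounding allowance of 6e-06). A score is the number of stacked fragments plus 1, divided by the background plus 1, so on a uniform background 1 fragment adds 0.332 and the fragments are the multiple less 1. For these 17 peaks the number was 10 to 26. Counting error alone was wide, and the best Epas1 peak with 26 fragments had a 95% interval (exact Poisson) of 17.0 to 38.1 fragments, or scores of 5.98 to 13.0. The median score was 5.86 for the CA repeats and 4.55 for the 10 other peaks, and 24 and 1 of them, respectively, were at or above the list's median. Over the whole WT list the corresponding medians were 5.65 and 4.65, the same order, and 49052 of 70614 CA repeats and 13781 of 52752 other peaks were at or above the list's median.

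**Figure D1:**
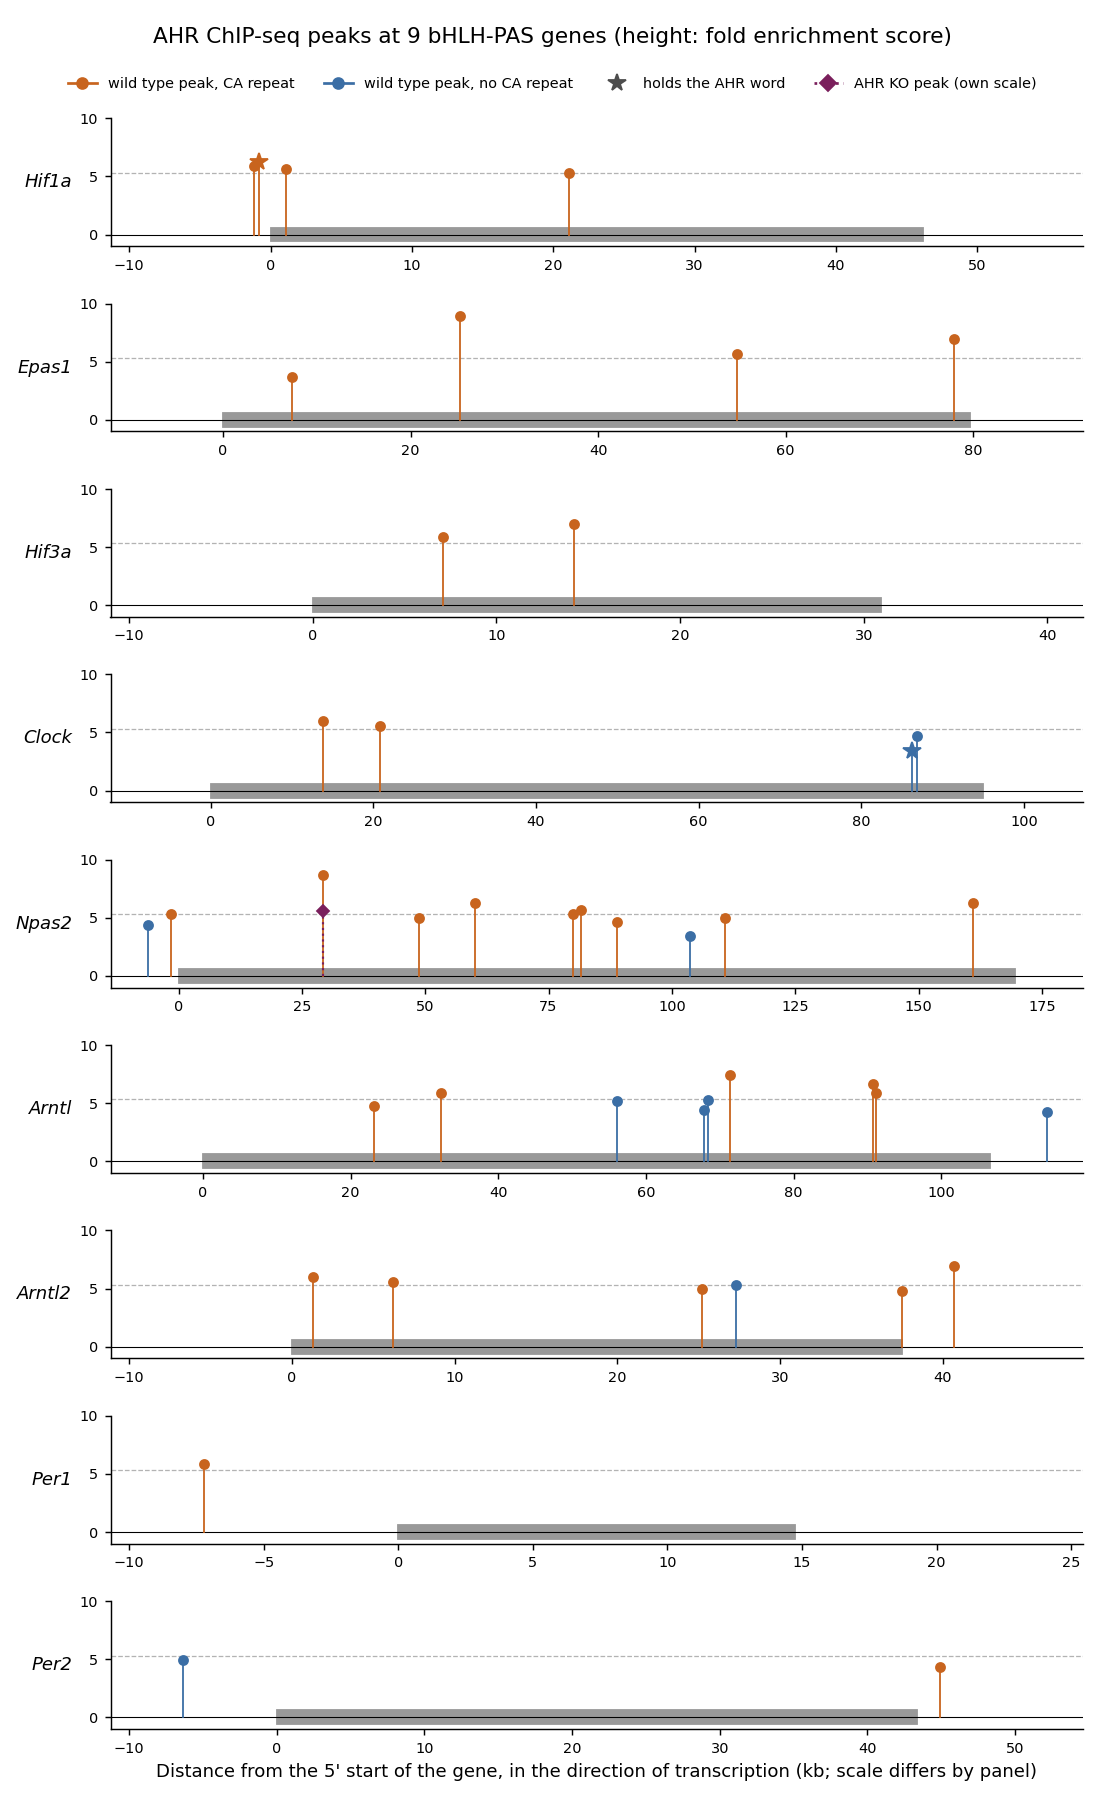
WT and AHR KO peaks along each of the 9 genes. Each panel shows 1 gene as a grey bar, the horizontal axis gives the distance of a peak's midpoint from the gene's 5′ start in kb in the direction of transcription, and the height is the fold enrichment score, with the median of all WT peaks (5.32) as a dashed line. Orange stems are CA repeats and blue ones are not, stars hold TNGCGTG, and the diamond is the AHR KO peak in Npas2, on the scale of its own list. In windows that are mostly gene body, 30 of 43 peaks lie in introns. Per1 and Per2 hold none in the gene itself, and the star upstream of Hif1a is the only peak with the AHR word near a gene's start.

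The HIF alpha genes held 10 of the peaks, each a CA repeat, with a median score of 5.89. Hif1a encodes the HIF subunit present in most cells. It lies at chr12:73901375-73947530 on the plus strand (ENSMUSG00000021109.13) and had 4 WT peaks, at 1174 and 851 bp upstream of its start and 1111 and 21094 bp into the gene. Their scores were 5.92, 6.25, 5.65 and 5.28, above 68.6, 76.5, 59.9 and 48.2% of the WT list. None was in its top 10%. The peak 851 bp upstream was the one peak of the 43 that both lay at a promoter and held TNGCGTG, where a promoter spans the 1 kb before and the 100 bp after an annotated start. A promoter that RefSeq lists for Hif1a lies inside the gene (chr12:73907617-73907916) and overlapped no WT peak. A promoter peak was present at 2 of the 9 genes (Hif1a and, at an internal start, Arntl). Promoter peaks were found at 9.27% of the 21938 protein-coding genes and a peak with TNGCGTG within 10 kb at 6.74%. The window was a CA repeat and 60.5% soft-masked. An antisense transcript, Gm15283, has an intron over all 4 peaks. The peak 1174 bp upstream held none of the words, and the middle 100 bases of its window were made of TG runs and near-copies of them.
Hif1a, 1174 bp upstream of the gene, chr12:73900151-73900250: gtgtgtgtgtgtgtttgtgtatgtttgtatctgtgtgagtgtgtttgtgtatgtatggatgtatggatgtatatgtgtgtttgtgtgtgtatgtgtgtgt

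Epas1 encodes HIF-2 alpha, the subunit known for regulating iron uptake in the intestine. It lies at chr17:86753700-86833410 on the plus strand (ENSMUSG00000024140.10) and its 4 WT peaks were 7323, 25326, 54864 and 77951 bp from its start, with scores of 3.66, 8.97, 5.65 and 6.98. These were 10, 26, 16 and 20 fragments. The counting intervals were 4.80 to 18.4 fragments for the lowest and 17.0 to 38.1 for the highest, and the difference between them was not tested. The second was the widest of the 43 at 595 bp, beside a median of 216, and scored above 97.4% of the WT list. Its central 200 bp held no word searched for, though 1 GCGTG lay elsewhere in the peak, and its sequence above is an array of short CACACA copies. The central 200 bp of the first and of the last peak each held 1 GCGTG and 1 ACGTG, the HIF words. The last lies in a UTR exon near the 3′ end of the gene and was fully soft-masked, and the first was 48.5% soft-masked, with a 31 bp CA run beside the words.
Epas1, 7323 bp into the gene, chr17:86760923-86761122: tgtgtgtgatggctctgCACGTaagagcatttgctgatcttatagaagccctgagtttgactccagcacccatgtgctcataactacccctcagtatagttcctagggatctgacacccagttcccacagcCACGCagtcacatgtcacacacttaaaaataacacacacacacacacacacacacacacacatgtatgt

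Hif3a, whose product can restrain the other HIF subunits, lies at chr7:17031507-17062427 on the minus strand (ENSMUSG00000004328.15). It had 2 WT peaks, 7065 and 14244 bp from the start in introns, with scores of 5.86 and 6.98. Neither held an AHR or HIF word. They differed in their repeats, since the first had a 41 bp CA run in a window 49.5% soft-masked, and the second had no run over 15 bp and was 58.0% soft-masked.

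The 4 genes of the activating arm of the clock held 30 of the peaks, 21 of them CA repeats, with a median score of 5.32. Clock lies at chr5:76209868-76304792 on the minus strand (ENSMUSG00000029238.11) and had 4 intronic peaks, 13830, 20836, 86174 and 86848 bp from its start, with scores of 5.97, 5.55, 3.37 and 4.69. The first pair had CA runs of 53 and 54 bp, and the peak at 20836 bp also held TGACTCA. The second pair, near the 3′ end, had no CA repeat and was fully soft-masked. The peak at 86174 bp (chr5:76218479-76218756) held TNGCGTG, but its score was above only 3.38% of the WT list. The 31 bases around that word occurred 6552 times in the assembled chromosomes and the 101 bases around it 2384 times, so this word is part of a high-copy repeat. At the peak's midpoint the central 31 bases occurred 1121 times and the central 101 bases once.

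Npas2 encodes the partner that can stand in for CLOCK. It is the longest of the 9 genes at 170 kb (chr1:39193731-39363236, plus strand, ENSMUSG00000026077.15) and had the most peaks, 11, or 5.80 per 100 kb of its window. Upstream, peaks at 6162 and 1588 bp from the start scored 4.42 and 5.32. Inside the gene, peaks at 29189, 48694, 60064, 80024 and 81609 bp scored 8.65, 4.98, 6.31, 5.32 and 5.65. Further on, those at 88809, 103677, 110833 and 160992 bp scored 4.65, 3.42, 4.96 and 6.31. All peaks inside the gene were intronic, and 9 of the 11 were CA repeats. None held TNGCGTG within the 200 bp window, and the peak at 110833 bp held it outside that window. The 2 without a CA repeat were the peak 6162 bp upstream, at a promoter of the annotated miRNA gene Mir6349, and the one at 103677 bp. The 101 bases at the midpoint of the former occurred 1206 times in the assembled chromosomes. The peak at 110833 bp was a CA repeat and held GCGTG.

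The AHR KO peak at Npas2 (chr1:39222930-39223202) scored 5.62, above 15.8% of the KO list, and lay 29335 bp from the start. It overlapped the highest-scoring WT peak of the gene (chr1:39222652-39223188, score 8.65, above 97.2% of the WT list). Scores depend on depth, which the study gives only as an average over its libraries, and were not compared between the lists. Both windows were CA repeats, 81.0% soft-masked in the KO peak and 100% in the WT peak, and neither held any word searched for. Among all WT peaks 1.46% overlapped an AHR KO peak, beside 1 of 43 here (2.33%, 0.412 to 12.1%), and an AHR KO peak lay within 10 kb of 4.47% of protein-coding genes, beside 1 of these 9. The KO list is short and rests on 1 library, so a missing KO peak at the other 42 sites may also reflect what that library could detect. The KO window held the same kind of sequence as the WT window, shown here by its middle 100 bases.
Npas2, AHR KO peak, chr1:39223016-39223115: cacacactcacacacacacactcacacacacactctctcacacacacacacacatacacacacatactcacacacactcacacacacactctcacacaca

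Arntl encodes BMAL1, the shared partner of CLOCK and NPAS2 (chr7:113207465-113314126, plus strand, ENSMUSG00000055116.8). It had 9 WT peaks, or 7.11 per 100 kb. The first 5, at 23132, 32301, 56075, 67828 and 68400 bp from the start, scored 4.72, 5.92, 5.15, 4.40 and 5.32. The last 4, at 71456, 90701, 91151 and 114279 bp, scored 7.44, 6.65, 5.86 and 4.23. The highest of them, at 71456 bp, was above 92.2% of the WT list and held the longest CA run of any of the 43 peaks, 65 bp. The peak at 32301 bp counted as a promoter peak because an annotated internal transcript starts 12 bp from its midpoint. The peak at 23132 bp held CACGTT, which on this strand reads AACGTG, at the very start of a 50 bp TG run, and was only 33.0% soft-masked. At 68400 bp a GCGTG without any CA repeat was found, in sequence whose central 31 bases occurred 4052 times and whose central 101 bases occurred once. The last peak lies 7618 bp past the end of Arntl, in an intron of Btbd10.

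Arntl2 encodes a second BMAL protein (chr6:146796055-146833529, plus strand, ENSMUSG00000040187.15). With 6 peaks in a 57.5 kb window it had 10.4 per 100 kb, the highest of the 9 and above 92.6% of protein-coding genes, whose median was 4.00. The peaks 1297, 6241 and 25219 bp from the start scored 5.98, 5.54 and 4.98. Those at 27305, 37520 and 40689 bp scored 5.31, 4.81 and 6.98. The midpoint of the peak at 37520 bp was 46 bp past the end of the gene, with the peak itself overlapping the UTR, and that of the last was 3215 bp past the end. Of the 6, 5 were CA repeats, and that at 27305 bp, in an exon, had a 48 bp GA run instead. GCGTG was present in 3 windows, with 2 copies at 6241 bp, both as GTGCGTG. No window held TNGCGTG.

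The repressors Per1 and Per2 held 3 peaks in all, none inside either gene. Per1 (chr11:69095217-69109960, plus strand, ENSMUSG00000020893.17) had a single peak, 7221 bp upstream of its start, with a score of 5.89. That position is at a promoter of the neighbouring gene Vamp2, and the sequence changes from a 51 bp run of CT to a 37 bp run of TG.
Per1, 7221 bp upstream, at the Vamp2 promoter, chr11:69087946-69088045: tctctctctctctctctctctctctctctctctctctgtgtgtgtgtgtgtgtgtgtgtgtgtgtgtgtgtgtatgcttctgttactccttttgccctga
Per2 (chr1:91415982-91459324, minus strand, ENSMUSG00000055866.9) had a peak 6338 bp upstream with a score of 4.93 and one 1570 bp past its end with a score of 4.38. The upstream peak had a 46 bp GA run and no CA repeat. The other lies at a promoter of the neighbouring gene Hes6, a Notch pathway regulator. Its window had 20 CpG pairs and a GC content of 68.0%, beside medians of 46.5% at these genes and 46.0% over the WT list, and it held a 39 bp TG run.
Per2, 1570 bp past the end, at the Hes6 promoter, chr1:91414312-91414511: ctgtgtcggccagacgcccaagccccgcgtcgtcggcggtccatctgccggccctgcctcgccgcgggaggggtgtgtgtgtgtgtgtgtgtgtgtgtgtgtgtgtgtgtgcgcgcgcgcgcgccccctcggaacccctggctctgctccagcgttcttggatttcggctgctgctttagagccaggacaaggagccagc
None of these 3 windows held an AHR word, a HIF word or an E-box.

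**Figure D2:**
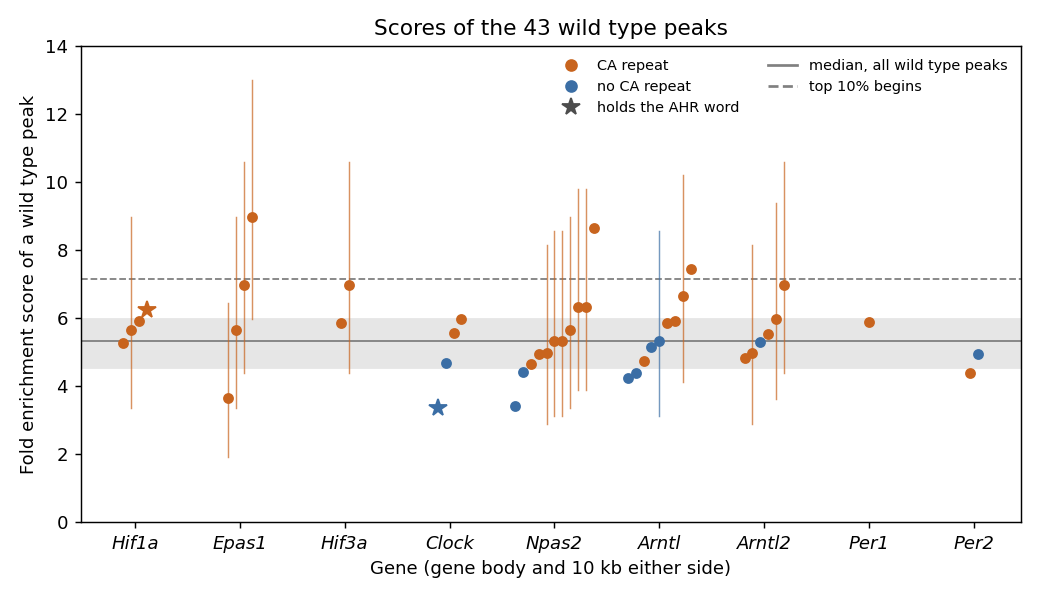
Fold enrichment scores of the 43 WT peaks by gene. Each point is 1 peak, bars are exact 95% Poisson intervals where a fragment number could be read, the band marks the quartiles of all WT peaks (4.53 and 5.98), and lines mark their median (5.32) and the start of the top 10% (7.14). Points above the dashed line are 1 each at Epas1 (8.97), Npas2 (8.65) and Arntl (7.44), and the star at Clock (3.37) is the lowest of all.

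By best peak the order was Epas1 (8.97), Npas2 (8.65), Arntl (7.44), Hif3a and Arntl2 (6.98 each), Hif1a (6.25), Clock (5.97), Per1 (5.89) and Per2 (4.93). The median best score of protein-coding genes with a WT peak was 6.31, and their share with any WT peak within 10 kb was 78.3%, beside 9 of 9 here. A peak in the top 10% was found at 3 of the 9, against 23.0% of all protein-coding genes. Per peak the share was 3 of 43 (6.98%). Shares per gene were not adjusted for window length or peak number, and protein-coding genes had a median of 2 peaks. Intervals of the 26 fragments of Epas1 (scores 5.98 to 13.0) and the 20 fragments of Hif3a and Arntl2 (4.39 to 10.6) overlapped, and no interval could be given for the other best peaks, so neighbours in this order were not told apart. Over the 803 kb of the 9 windows the peaks came to 5.35 per 100 kb, beside 4.66 over the assembled chromosomes and 4.53 over the windows of all protein-coding genes. Per gene the density ran from 2.88 at Per1 to 10.4 at Arntl2.

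The copies of each feature that a peak did or did not cover were then counted, a comparison chosen after the peaks had been seen. The 9 windows held 70 copies of TNGCGTG, of which 3 lay in a WT peak (4.29%, 1.47 to 11.9%), beside 2.75% in the assembled chromosomes. They were 1 each at Hif1a, Clock and Npas2. All 3 were soft-masked (3 of 16, 18.8%, 6.59 to 43.0%), beside 7.14% of soft-masked copies in the assembled chromosomes. Of the 54 copies that were not soft-masked, none was in a peak (0 of 54, which allows up to 5.56%), beside 0.471% in the assembled chromosomes. At promoters of the 9 genes there were 5 copies. The Hif1a copy was in a peak. Those outside any peak were 909 bp upstream of Epas1, 452 bp upstream and 336 bp downstream of the start of Clock, and at an internal transcript of Epas1 70251 bp from its start. In contrast, 38 of the 105 runs of CA of at least 20 bp lay in a WT peak (36.2%, 27.6 to 45.7%), beside 30.9% in the assembled chromosomes. The share ran from 8 of 34 for runs of 20 to 29 bp to 7 of 12 for runs of 50 bp or more. The same order was seen in the assembled chromosomes, from 24.8 to 44.9%. Some runs shared a peak, as in the UTR exon peak of Epas1, so runs are not independent draws and these shares are descriptions. An AHR KO peak covered 1 of the 105 runs, beside 1.01% in the assembled chromosomes.

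**Figure D3:**
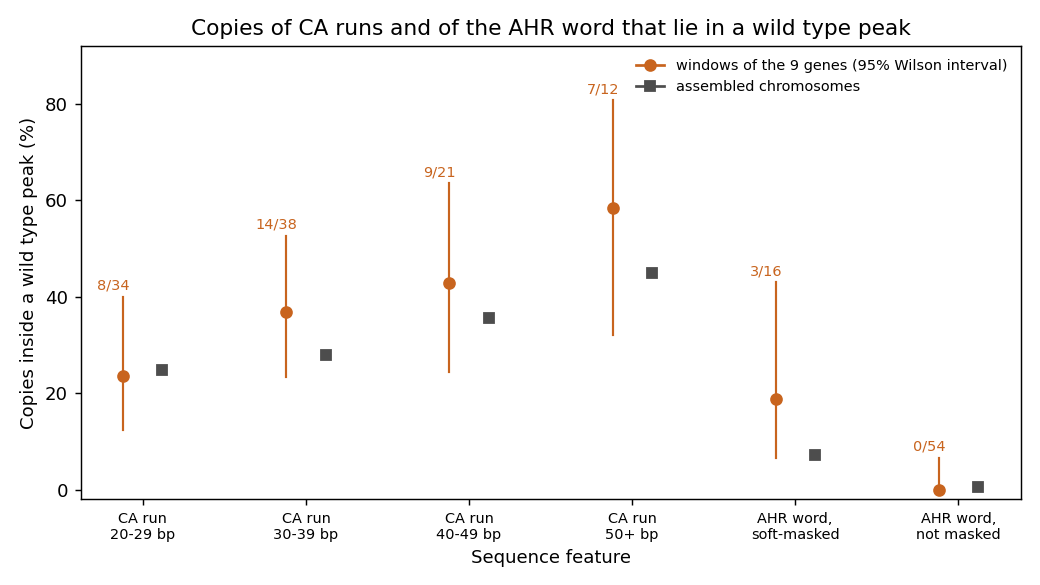
Percentage of sequence features that lay in a WT peak. Circles are the windows of the 9 genes with 95% Wilson intervals and the number in a peak over the number present, squares are the assembled chromosomes, and the features are CA runs by length and the AHR word TNGCGTG inside and outside soft-masked sequence. At the 9 genes the share was larger in each longer class of CA run, from 8/34 to 7/12, with overlapping intervals. None of 54 unmasked words was covered, beside 0.471% in the assembled chromosomes.

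RefSeq promoters of GRCm38.p6, 250 bases before to 50 after a start, were listed for 7 of the 9 genes (Epas1 and Per2 were not matched) with 11 starts. Those of Hif1a, Per1 and Arntl2 lie kilobases inside the gene bounds given above, so these are not the promoters at the 5′ starts used elsewhere. None overlapped a WT peak, and 0.962% of all 32851 RefSeq promoters did. Some held words of the HIF and clock pairs. The E-box CACGTG was in 2 of the 11 (Per1 and Hif1a), against 7.15% of all promoters, ACGTG in 3 against 19.6%, and GCGTG in 5 against 32.4%. TNGCGTG was in none of the 11, against 5.07% of all.

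The surrounding pathways were read from lists of named genes. In the hypoxia list of 18 genes (HIF partner and degradation genes and classical HIF targets), 14 had a WT peak within 10 kb and 5 one in the top 10%, beside 78.3% and 23.0% of all protein-coding genes. None had an AHR KO peak (4.47% of all) or a WT peak with TNGCGTG (6.74% of all). Their best scores had a median of 6.48 (3.44 to 10.3). The highest belonged to Vegfa, the angiogenic growth factor, with a peak 457 bp upstream of its start that was 21% soft-masked, had no CA repeat and held GCGTG 3 times. Hif1an, Siah1a, Pgk1 and Car9 had no peak. Hif1an encodes the enzyme that blunts HIF activity and Car9 a carbonic anhydrase induced in hypoxia.

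In the list of 18 further clock genes, 15 had a WT peak and 4 one in the top 10%, again beside 78.3% and 23.0% of all protein-coding genes. The median best score was 5.98 (4.40 to 13.2). The highest was an intronic peak of Cry2, a partner of the PER repressors, 2822 bp from the start, a CA repeat with 10 copies of GCGTG and none of TNGCGTG. Nr1d2, Bhlhe41 and Tef had no peak. Rora, an activator of Arntl, was the one gene of the 18 with an AHR KO peak (4.47% of all genes) and the one with a WT peak holding TNGCGTG (6.74%), in a window of 754 kb with 52 WT peaks. CA repeats made up 73.9% of the 88 peaks at the clock list, 60.0% of 25 at the hypoxia list and 76.7% at the 9 genes, beside 57.2% of all WT peaks.

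Among 13 other PAS proteins and coactivators (Arnt and Per3 were also counted in the lists above), 12 had a WT peak and 7 one in the top 10%, beside the same 78.3% and 23.0%. The median best score was 7.97 (4.65 to 12.0). The highest was an intronic CA repeat peak of Ncoa2, a coactivator gene. Ahr itself had no WT peak. Ahrr, the AHR repressor and a classical AHR target, was the only gene in the 3 lists whose best peak (score 11.0, intron) held TNGCGTG in a window under 25% soft-masked. It held 3 copies, was 0% soft-masked and had no CA repeat, a combination that none of the 43 peaks showed. CA repeats made up 59.7% of the 72 peaks at this list. Per 100 kb this list held 3.30 WT peaks, the hypoxia list 3.38 and the clock list 5.83, beside 4.53 over all protein-coding genes. Arnt2 and Sim2 (2 of 13, beside 4.47% of all genes) had an AHR KO peak, in each case over their best WT peak, both CA repeats and 100% soft-masked. Peaks with TNGCGTG were found at 5 of the 13, at 2 of the 9 genes described here and at 6.74% of protein-coding genes. Shares per gene in these lists were not adjusted for window length, which reached 843 kb at Npas3.

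**Figure D4:**
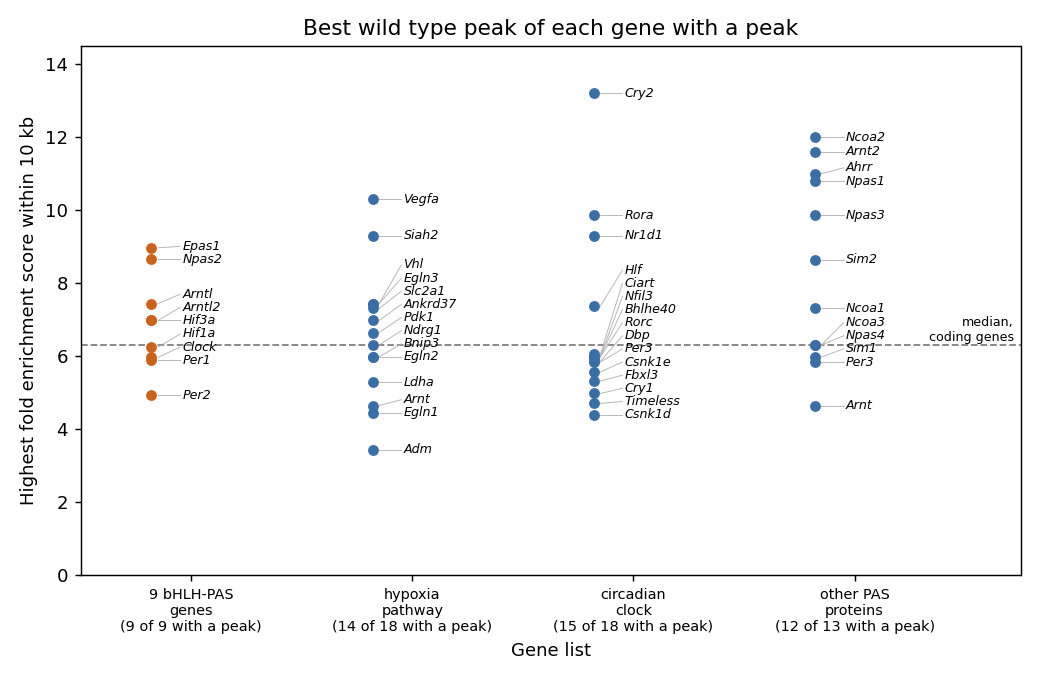
Best WT peak of each gene with a peak, by list. Each point is 1 gene, the vertical axis is the highest fold enrichment score within 10 kb of the gene, and the dashed line is the median of protein-coding genes with a peak (6.31). The 9 genes span 4.93 to 8.97, and Vegfa (10.3), Cry2 (13.2) and Ncoa2 (12.0) lead the other lists.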

How the data were processed

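Per the submitters' processing notes, reads were aligned with BWA 0.7.15 to mm10, handled with Picard 2.1.1, and peaks were called with MACS2 2.1.1 and annotated with HOMER 4.8. The study called peaks for immunoprecipitates against their own inputs in standard settings, and compared peaks between experiments with Bedtools intersect and its own scripts. Which of these steps made the single WT list, and how reads mapping to several places were treated, is not given in the sources used here, and the latter bears on peaks in repeats. The deposited score is the authors' fold enrichment ratio, 1 value per peak and list, and no value per sample was analysed here. The study gives an average number of reads over its libraries, and the depth of each library is not given in the sources used here. Starts were taken as counted from 0, and 1 was added. Gene and transcript bounds came from GENCODE M21, sequence from GRCm38, and no peak ran past a chromosome's end. An overlap of 1 bp counted. Word counts, soft-masking and CA repeats were computed from the 200 bp around each midpoint on chromosomes 1 to 19, X and Y with Python 3 scripts that were tested on simulated data. All 9 genes and every peak are reported. From each pathway list the gene with the highest score, genes with no peak or with an AHR KO peak, and genes whose best peak holds TNGCGTG and is under 25% soft-masked are named, with a few members added after their values were seen to say what a list holds. The genes and lists were chosen with earlier results of these data known. Counts and shares are descriptions beside the same over all peaks, genes or promoters, and no test was run. The sequences of 2 peaks are not reported here.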

Additional observations from a re-analysis of the deposited data

How the results depend on the processing

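For 8 results (the numbers of WT, AHR KO and shared peaks, of genes with a WT or a top 10% peak, the shares with TNGCGTG and soft-masked, and the median score) 32 alternatives were computed in all, 2 of them (RefSeq gene bounds) chosen after seeing the data, and 22 stayed within 1.5 times the count or inside the interval given. Of the 10 that moved, a window of 50 kb either side gave 85 WT peaks, 6 genes with a peak in the top 10% and 3 AHR KO peaks. Counting only peaks at or above the list's median left 25, and only the top 10% left 3. GCGTG in place of TNGCGTG gave 25.6%, and TNGCGTG in peaks under 50% soft-masked was 0% (0 of 7). The soft-masked share was 55.8% with a limit of 75% and 100% with a limit of 25%. With a reciprocal overlap of 50% the number of WT peaks shared with the AHR KO was 0, since the WT peak at Npas2 is 537 bp wide and only part of it is covered. RefSeq bounds gave 48 WT peaks, because the RefSeq Arntl gene starts farther upstream. In the gene bodies alone there were 34 peaks at 7 genes, Per1 and Per2 having none. No paired analysis was possible because only 1 peak list per genotype was used, with no value per numbered sample.

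For the 17 peaks with 10 to 26 readable fragments the counting intervals were wide, and for the other 26 no interval could be given. Word shares other than TNGCGTG and GCGTG, the CA repeat share, densities and pathway counts were not recomputed. The share of CA runs inside a peak rose with run length in both sets, and the part of repeats in the peaks was not tested.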

Other observations

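Between 10 and 50 kb from the 9 genes lay 42 further WT peaks, some with scores above any within 10 kb. The highest was 28843 bp upstream of Per1 (score 16.3, above 99.9% of the WT list), a CA repeat that overlapped an AHR KO peak with a score of 6.15. A peak 28526 bp downstream of the Per1 start, in a UTR exon of Hes7, scored 15.6 and had no CA repeat. Upstream of Arntl2, a CA repeat peak in an intron of Stk38l, 44401 bp from the Arntl2 start, scored 12.3. The peak 33314 bp upstream of Epas1 scored 11.8 and held GCGTG 21 times with no TNGCGTG in a fully soft-masked CA repeat. TNGCGTG was held by a peak 111543 bp from the Epas1 start (score 5.29, a CA repeat) and by one 33418 bp upstream of Arntl2 (score 5.32, no CA repeat). The other AHR KO peak at this range was 47600 bp upstream of Npas2 (score 4.999, a CA repeat) and overlapped a WT peak with a score of 7.33. Clock and Per2 had no peak of either list in this range.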
